A study of Homo sapiens with 4 samples.

Results

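The lines compared here were A8i-A and A8i-B, 2 of the 4 libraries of the series, which carry the isoforms ECM1a and ECM1b of extracellular matrix protein 1. They were taken as the labels name them, and all 9885 genes of the deposited event table were compared. A8 is the parental line HEYA8, human ovarian cancer cells derived from HEY, and A8i is HEYA8 with stable silencing of ECM1 by a short hairpin RNA delivered by lentivirus and selected with puromycin. A8i-A is HEYA8i with stable expression of ECM1a, and A8i-B is HEYA8i with stable expression of ECM1b, in both cases from a cDNA with an HA tag. Both isoform lines therefore share the ECM1 silencing of A8i and differ, by design, in the cDNA. The methods of the study name either cell sorting for GFP or growth in zeocin or hygromycin as the selection for cDNA lines, without saying which was used for these libraries, and no clone numbers were given. A line with an empty vector was not analysed here. Each line had 1 library, so no difference below has a replicate check, no p is given, and every value describes these libraries.

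ECM1 is a secreted glycoprotein of the extracellular matrix. Its isoforms come from one gene by alternative splicing, in which exons of the precursor RNA are joined in more than one way, and proteins of the hnRNP and SR families bind the precursor and decide which exons are kept. Cells attach to the matrix through integrins, which pass the contact on to the actin filaments by way of focal adhesions. The comparison of A8i-A with A8i-B asks which genes differ when cells with silenced ECM1 are given one isoform or the other.

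The isoforms differ by exon 7, which ECM1a keeps and ECM1b skips. The ECM1 gene spans 150480538 to 150486265 of chromosome 1 (GRCh37, forward strand). Exon 7 runs from 150483933 to 150484307 and holds 375 nt, or 125 codons. The annotated ECM1a transcript has 10 exons and 540 codons, and the ECM1b transcript has 9 exons and 415 codons. Exon 6 (150483352 to 150483674, 323 nt) and exon 8 (150484828 to 150485048, 221 nt) flank it in both. The exon junctions below are shown because they are where the RNA of the isoforms parts. Each has 15 bases on either side of the junction, 5′ to 3′, with bases of exon 7 in capitals and bases of exons 6 and 8 in lower case.
exon 6 to exon 7, ECM1a: tgtgccaaacttgtgTGGGAGGAAGCAATG
exon 7 to exon 8, ECM1a: TGTACATGGAAGGCCtgggaggataccctt
exon 6 to exon 8, ECM1b: tgtgccaaacttgtgtgggaggataccctt

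The table holds a whole number of events for each gene and library, between 0 and 32. Neither the labels nor the methods name the kind of event, so an event number was read here neither as a level of expression nor as a number of reads. The total was 22691 events in A8i-A and 24236 in A8i-B, beside 24513 in A8 and 20535 in A8i. The total of A8i-A was 93.6% of that of A8i-B (exact Clopper-Pearson 95% interval, 91.9 to 95.3%). Put as a share of the events of both lines, A8i-A held 48.4% (47.9 to 48.8%), the value against which each group of genes is read below. These intervals and those that follow treat each event as independent of the others, so they reflect counting error alone. ECM1 itself had 2 events in each of the 4 libraries, so this table does not check the silencing or the cDNA. Markers of the labelled origin and of other cell types were looked up, although an event number, a 0 included, does not tell whether a cell type is present. Of 10 markers of epithelial carcinoma, 6 were listed, and PAX8, a transcription factor of Müllerian epithelium, had 11 events in A8 and 7 in each other library. The keratin gene KRT8 had 5 events in A8i-A, 6 in A8i-B, 7 in A8 and 5 in A8i, whereas EPCAM, an epithelial adhesion molecule, was listed at 0 in all 4. Of 8 leukocyte markers only CD14 was listed, with 1 event in A8i-B, none of the 4 endothelial markers was listed, and of 7 fibroblast markers only COL1A1 was, with 1 event in A8, A8i-A and A8i-B.

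Most genes had nearly the same number of events in both lines. An event was listed for 8928 genes in at least 1 of the lines and for 6938 in both, and 957 genes were at 0 in both. The number was equal for 4215 genes, of which 3258 had events, and a further 3370 genes differed by 1 event. A8i-A had more events for 2471 genes and A8i-B for 3199. A difference of at least 5 events was found for 241 genes and one of at least 10 for 15 genes, 7 with more in A8i-A and 8 with more in A8i-B. The squared difference summed over genes was 0.58 of the summed events in this pair, where independent Poisson counts of equal mean would give 1. It lay between 0.579 and 0.638 in the other 5 pairs of libraries. In each of the 6 pairs the event numbers were thus closer to each other than such Poisson counts would be. Whether event numbers follow Poisson counts is not known, since the kind of event is not named.

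The genes with the most events changed places little. ANXA2, a membrane-binding annexin that the study lists among the partners of ECM1a, had 26 events in A8i-A and 28 in A8i-B, with 32 in A8 and 26 in A8i. HNRNPH1, an hnRNP splicing regulator, had 26 in A8i-A and 21 in A8i-B, with 24 in A8 and 26 in A8i. EEF1D, a subunit of a translation elongation factor, had 25 and 24 events, and QARS, the glutaminyl-tRNA synthetase, had 20 and 19. The widest gaps among these 10 genes were those of HMGN1, a nucleosome-binding protein, with 23 events in A8i-A against 14 in A8i-B, and of CENPT, a kinetochore protein, with 15 against 24, followed by ADAM15, a membrane metalloprotease, with 16 against 23 and RPAIN, an import factor for replication protein A, with 23 against 16. The DNA repair glycosylase gene MUTYH had 23 against 20, and AP1G2, an adaptor subunit of vesicle coats, 18 against 19. No gene of the 10 reached a 2-fold ratio.

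A gene was called separated where the lines differed by at least 3 events and by at least 2-fold after 1 was added to each number. This held for 631 of 9885 genes (6.38%), with 227 genes (2.3%) having more events in A8i-A and 404 (4.09%) more in A8i-B. The same rule separated 6.85% of genes between A8 and A8i, 6.56% between A8 and A8i-A, 6.59% between A8 and A8i-B, 6.61% between A8i and A8i-A and 7.11% between A8i and A8i-B. The isoform lines were therefore the pair with the fewest separated genes, though all 6 pairs lay close together. With both libraries scaled to the mean of their totals the split became 228 genes with more in A8i-A and 177 with more in A8i-B. All 227 genes so lost had a raw difference of exactly 3 events or a raw ratio of exactly 2, and with the limits lowered to 2.5 events and 1.9-fold, a setting chosen after the values were seen, the scaled split was 236 and 373. On the scaled values, which line holds more separated genes therefore turned on where the limits were set. The 30 genes with the largest ratios or differences were separated with and without scaling.

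**Figure D1:**
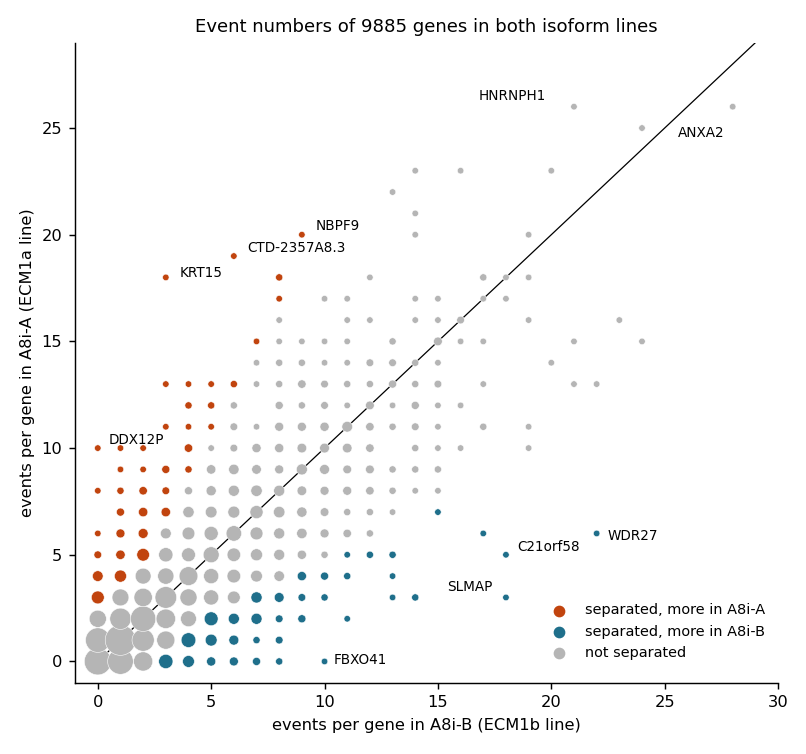
Events per gene in A8i-B (horizontal) and A8i-A (vertical) for all 9885 genes, 1 library each, with larger points where more genes share a pair of numbers and a line where both are equal. Most genes crowd along the line, 227 separated genes (orange) lie above it and 404 (blue) below, and KRT15, DDX12P, SLMAP, FBXO41 and WDR27 lie farthest out.

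Among the genes with more events in A8i-A, KRT15 stood out by its difference. This type I keratin of basal epithelial cells (ENSG00000171346, chromosome 17 of GRCh37, 39669997 to 39678781, reverse strand) had 18 events in A8i-A against 3 in A8i-B, with 8 in A8 and 5 in A8i. The ratio was 6.0 (1.75 to 31.8), and A8i-A lay above and A8i-B below the other libraries. The long non-coding RNA CTD-2357A8.3 (chromosome 17, 76601315 to 76628237) had 19 events in A8i-A, 6 in A8i-B, 13 in A8 and 8 in A8i, a ratio of 3.17 (1.22 to 9.69). For 3 further genes with large differences the interval of the ratio reached below 1. NBPF9, of the neuroblastoma breakpoint family, had 20 events in A8i-A, 9 in A8i-B, 12 in A8 and 13 in A8i (2.22, 0.967 to 5.54). IRF3, a transcription factor of the interferon response (chromosome 19, 50162826 to 50169132), had 18 in A8i-A, 8 in A8i-B, 11 in A8 and 17 in A8i (2.25, 0.931 to 5.98). TPT1-AS1, an antisense RNA, had 18, 8, 9 and 7 in the same order, with the same ratio and interval as IRF3. Where it overlaps its partner gene, reads cannot be told apart unless strand was kept. In IRF3 it was A8i-B that lay away from its parent A8i, and in TPT1-AS1 it was A8i-A.

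The largest ratios towards A8i-A belonged to genes with 0 or 1 event in A8i-B. DDX12P, a pseudogene of the DEAD/H-box helicases (chromosome 12, 9571269 to 9600825), had 10 events in A8i-A against 0 in A8i-B, with 7 in A8 and 3 in A8i. Taking 3 events as the upper limit of a listed 0, its number was at least 3.33-fold higher in A8i-A. Such limits, here and below, take the other number as exact and leave out its counting error. They are not intervals of the ratio, and none was computed for genes at 0 in 1 line. RBFOX3, an RNA-binding splicing regulator known as the neuronal marker NeuN (chromosome 17, 77085427 to 77512230), had 8 events in A8i-A and 0 in A8i-B, with 5 in A8 and 9 in A8i, so that its number was at least 2.67-fold higher in A8i-A. For RBFOX3 A8i-B was the library apart from the other 3. KCTD17, a substrate adaptor of cullin ubiquitin ligases (chromosome 22, 37447779 to 37459430), had 12, 10 and 10 events in A8, A8i and A8i-A and 1 in A8i-B (ratio 10.0, 1.42 to 434). SLC2A6, of the glucose transporter family, had 9 in A8i-A, 1 in A8i-B, 7 in A8 and 4 in A8i (9.0, 1.25 to 394). TRIM16, a tripartite motif protein, had 6 in A8i-A, 0 in A8i-B, 12 in A8 and 1 in A8i (at least 2.0-fold higher). A8i-B was the lowest of the 4 libraries in all 5 of these genes.

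Smaller numbers made up the rest of this list. OGG1 is the glycosylase that removes oxidised guanine from DNA (chromosome 3, 9791628 to 9829903). RASSF8 is of the Ras association domain family, and UBA7 activates the ubiquitin-like protein ISG15. All of these genes had 5 events in A8i-A against 0 in A8i-B, and between 0 and 3 in A8 and A8i. By the limit above the number was at least 1.67-fold higher, which again leaves out the counting error of the 5 events. ANK1, an ankyrin that ties membrane proteins to spectrin, and AC004980.7 each had 4 events against 0, at least 1.33-fold. ANK1 had 1 event in both A8 and A8i, and AC004980.7 had 2 and 0. DDX12P, NBPF9, TRIM16 and FAM95B1, described below, have near-identical copies elsewhere in the genome, so their numbers are uncertain, since how the counting treated reads shared by copies is not given in the sources used here.

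In the other direction, WDR27 held the largest difference. This WD-repeat protein gene (chromosome 6, 169857307 to 170102163, reverse strand) had 22 events in A8i-B against 6 in A8i-A, 7 in A8i and 9 in A8, and A8i-B stood apart from the other 3 (ratio of A8i-B to A8i-A 3.67, 1.44 to 11.1). SLMAP, a tail-anchored membrane protein of the STRIPAK phosphatase complex (chromosome 3, 57741177 to 57915730, forward strand), had 18 in A8i-B, 3 in A8i-A, 11 in A8i and 20 in A8 (6.0, 1.75 to 31.8). In this gene A8i-A was the lowest library and A8i-B lay close to A8. C21orf58 (chromosome 21, 47720095 to 47743789) had 18 in A8i-B, 5 in A8i-A, 5 in A8i and 10 in A8 (3.6, 1.29 to 12.4). IGFN1, a protein of immunoglobulin-like and fibronectin domains, had 17 in A8i-B, 6 in A8i-A, 4 in A8i and 0 in A8 (2.83, 1.07 to 8.78). BCL2L13, a mitochondrial member of the BCL2 family (chromosome 22, 18111621 to 18213621), had 14 in A8i-B, 3 in A8i-A, 12 in A8i and 3 in A8 (4.67, 1.3 to 25.3). In BCL2L13 the numbers paired A8i-B with A8i and A8i-A with A8.

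FBXO41, an F-box protein (chromosome 2, 73481810 to 73511606), had the largest ratio towards A8i-B, with 10 events against 0 in A8i-A, 1 in A8i and 5 in A8, at least 3.33-fold higher in A8i-B. GANC, a neutral alpha-glucosidase, had 8 events in A8i-B against 0 in A8i-A, 0 in A8 and 1 in A8i, at least 2.67-fold higher in A8i-B. GABBR1, a subunit of the GABA-B receptor, SIPA1, a GTPase-activating protein for Rap, ZBTB48, a zinc finger protein that binds telomeres, and ZMYM1, a zinc finger protein, each had 7 events in A8i-B against 0 in A8i-A (at least 2.33-fold higher). Their numbers in A8 were 4, 1, 0 and 7, and in A8i 1, 0, 2 and 1. BAZ2B, a bromodomain protein, and FAM95B1 each had 6 against 0, at least 2.0-fold. FAM95B1 (ENSG00000223839) was at 0 in A8 and A8i too and had events in A8i-B only. A second gene listed under that symbol, ENSG00000274628, had 4 events in A8i-B, 0 in A8i-A, 2 in A8 and 0 in A8i. BAZ2B had 3 events in A8 and 1 in A8i.

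How often genes were separated moved with the number of events, and the rule itself sets much of this pattern. With 1 to 4 events in both lines together, only 3 or 4 events against 0 can be called separated. With many events the 2-fold limit asks for a wider gap. Of 5397 genes with 1 to 4 events in both lines together, 2.8% were separated, of 2201 genes with 5 to 9 events 16.1%, of 1099 with 10 to 19 events 10.4% and of 231 with 20 to 54 events 5.19%. The separated genes divided into 58 towards A8i-A and 93 towards A8i-B at 1 to 4 events, 117 and 237 at 5 to 9, 45 and 69 at 10 to 19, and 7 and 5 at 20 to 54, the last resting on 12 genes. The share of A8i-A went from 47.6% at 1 to 4 events and 47.7% at 5 to 9 to 49.0% at 10 to 19 and 50.0% at 20 to 54. Of the separated genes, 64 were at 0 in A8i-B and 115 at 0 in A8i-A.

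Since both lines come from A8i, the separated genes were placed among the 4 libraries. Of the 227 genes with more events in A8i-A, A8i-A lay outside the range of the other 3 libraries in 161 (70.9%), A8i-B did in 99 (43.6%) and both did in 55. Of the 404 with more in A8i-B, A8i-B lay outside in 285 (70.5%), A8i-A in 182 (45.0%) and both in 93. In either direction the line with more events was more often the one outside, but the way of counting favours this order. The genes were chosen by the values of these same lines. A line without events cannot lie below another library without events, whereas the line with more events has no upper limit. Of the separated genes, 64 had no event in A8i-B and 115 had none in A8i-A. How much of the order comes from this was not tested, so no conclusion is drawn from it. A8 and A8i were themselves separated the same way, with A8 on the side of A8i-A, for 41 of the 227 (18.1%) and 15 of the 404 (3.71%). They were separated the other way, with A8 on the side of A8i-B, for 7 of the 227 (3.08%) and 59 of the 404 (14.6%). In both directions these genes mostly had more events in A8 than in A8i, which is also the order of the totals of those libraries.

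Some of the 631 separated genes, out of 9885 in all, fell into pairs of libraries with a gap of at least 3 events. In 40 genes A8 and A8i-A both lay above A8i and A8i-B. COA1, an assembly factor of cytochrome c oxidase, had 14 and 15 events against 7 and 7, MTMR9LP 10 and 8 against 1 and 2, and NOXA1, an activator of NADPH oxidase, 8 and 7 against 0 and 2. CSAD, an enzyme of taurine synthesis, had 9 and 9 against 1 and 4, and the non-coding RNA BISPR 4 and 4 against 0 and 0. In 12 genes the order was turned round, with A8i and A8i-B on top. BCL2L13 led these, followed by PRMT2, an arginine methyltransferase, with 8 and 9 events in A8i and A8i-B against 3 and 2 in A8 and A8i-A, NAE1, a subunit of the NEDD8-activating enzyme, with 10 and 9 against 5 and 4, and LAMA5, the laminin alpha 5 chain, with 8 and 6 against 3 and 1. Both groups were picked for this pairing, with A8i-B beside its parent A8i and A8i-A beside the unsilenced A8, so the pairing itself is no result.

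Genes that set A8i-A beside A8i instead were counted in the same way. In 55 genes A8 and A8i-B lay above A8i and A8i-A. ZNF514, a zinc finger protein, had 15 and 14 events against 4 and 3, UBE3A, a ubiquitin ligase, 14 and 13 against 3 and 5, and ADGRB1, an adhesion G protein-coupled receptor, 10 and 9 against 1 and 2. LINC01001 had 6 and 7 against 1 and 1, and NKIRAS2, a Ras-like inhibitor of NF-kappa-B, 9 and 10 against 4 and 4. In 10 genes A8i and A8i-A lay above the others, among them C1orf159 with 10 and 10 events against 5 and 2, DBNL, an actin-binding adaptor, with 13 and 13 against 8 and 5, and CLK4, a kinase of SR proteins, with 10 and 10 against 7 and 4. Either way of pairing the libraries was more frequent with A8 on the upper side. The 55 and 10 genes of this pairing stand beside 40 and 12 of the one before. A8i-A was thus not set beside A8 more often than beside A8i.

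Genes were then grouped by the letters that open their symbols, which mark related genes in most groups but not in all (a prefix such as C or LINC joins unrelated genes). Of 118 such families with at least 10 genes, 94 had at least 50 events in both lines together, and they held 3154 genes. The share of A8i-A lay between 36.2 and 54.6% with a median of 48.0%, above the value over all genes in 44 families and below it in 50. For 1 family of 94 (1.06%) the interval left out the share over all genes. That family, ZNF, was chosen after its values were seen, since it lay outside the 5 lowest and the 5 highest.

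Most ZNF symbols name zinc finger proteins, many of them KRAB repressors that silence transposable elements, and some name antisense RNAs such as ZNF529-AS1. The 313 ZNF genes had 510 events in A8i-A and 620 in A8i-B, beside 586 in A8 and 426 in A8i, so that A8i-A held 45.1% (42.2 to 48.1%). Between A8 and A8i the interval of ZNF left out the share over all genes as well, where A8 held 57.9% of its events (54.8 to 61.0%) against 54.4% over all genes. In that pair this was not particular to ZNF. A8 held 61.7% for LINC (55.3 to 67.9%) and 59.3% for SLC (55.2 to 63.3%), for example. Of the ZNF genes, A8i-A had more events for 65, A8i-B for 125, and 123 were equal, where all genes divided into 2471, 3199 and 4215. The separated members were 10 towards A8i-A and 14 towards A8i-B (7.67% of the family, against 6.38% of all genes), led by ZNF514 with 3 events in A8i-A and 14 in A8i-B, ZNF718 with 0 and 6, ZNF76 with 3 and 8 and ZNF131 with 2 and 7. Base composition moved with this share. Of the ZNF genes, 118 fell in the 25% of genes with the lowest GC content, with 142 and 205 events (40.9%, 35.7 to 46.3%), where 13 had more events in A8i-A and 54 more in A8i-B. The other 195 had 368 and 415 events (47.0%, 43.5 to 50.6%), and the 2337 genes of low GC content outside the family stood at 46.7% (45.7 to 47.7%). The part of base composition in the ZNF value was not tested further. Over members with an event in all 4 libraries the interval of ZNF no longer left out the share over all genes.

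The lowest shares of A8i-A belonged to FBXO, BCL, TBC, ZDHHC and MYO, all with intervals that took in the value over all genes. The 21 FBXO genes, mostly F-box subunits of ubiquitin ligases, had 21 events in A8i-A and 37 in A8i-B (36.2%, 24.0 to 49.9%), with FBXO41 alone at 0 and 10. The 14 BCL genes, a prefix that joins the BCL2 family with unrelated genes, had 22 and 37 (37.3%, with an interval up to 50.9%), with BCL2L13 at 3 and 14. In both families 1 gene held most of the gap. The gap was spread over more genes in TBC and ZDHHC. The 29 TBC genes, mostly GTPase-activating proteins for Rab, had 48 and 69 events (41.0%, 32.0 to 50.5%), with more in A8i-A for 4 genes and more in A8i-B for 12, among them TBC1D5 with 4 and 9, TBC1D31 with 3 and 7, TBC1D3, which has near-identical copies, with 0 and 4, and TBC1D7 with 6 and 9. The 18 ZDHHC genes, which encode palmitoyltransferases, had 29 and 41 (41.4%, 29.8 to 53.8%), with more in A8i-A for 3 and more in A8i-B for 8, such as ZDHHC6 with 2 and 5 and ZDHHC21 with 1 and 4. The 13 MYO genes, mostly unconventional myosins, had 22 and 30 (42.3%, 28.7 to 56.8%), with MYO9B at 4 and 7.

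At the other end stood STK, SH, SNX, MTMR and ABHD. The 18 STK genes, mostly serine/threonine kinases, had 53 events in A8i-A and 44 in A8i-B (54.6%, 44.2 to 64.8%), with STK25 at 12 and 5 and STK40 at 9 and 5 but STK36 at 4 and 8. The 25 genes under SH, mainly carriers of SH2 or SH3 domains, had 47 and 41 (53.4%, 42.5 to 64.1%), with more in A8i-A for 11 and more in A8i-B for 5. The 18 sorting nexins under SNX had 45 and 40 (52.9%, 41.8 to 63.9%), with more in A8i-A for 7 and more in A8i-B for 3. The only separated sorting nexin, SNX19, ran towards A8i-B with 2 and 5. Members of the last families moved in both directions. The 10 MTMR genes, myotubularin lipid phosphatases and relatives, had 37 and 33 (52.9%, 40.6 to 64.9%), from MTMR9LP with 8 and 2 to MTMR14 with 4 and 10, and the 13 ABHD hydrolases had 27 and 24 (52.9%, 38.5 to 67.1%), from ABHD11 with 6 and 2 to ABHD3 with 2 and 5. The prefixes of cytosolic ribosomal proteins were even, with 125 and 123 events for RPL and 111 and 111 for RPS, which also takes in other genes such as RPS6KA1. Of other translation prefixes, EIF had 162 and 150 events and MRPL 75 and 83.

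**Figure D2:**
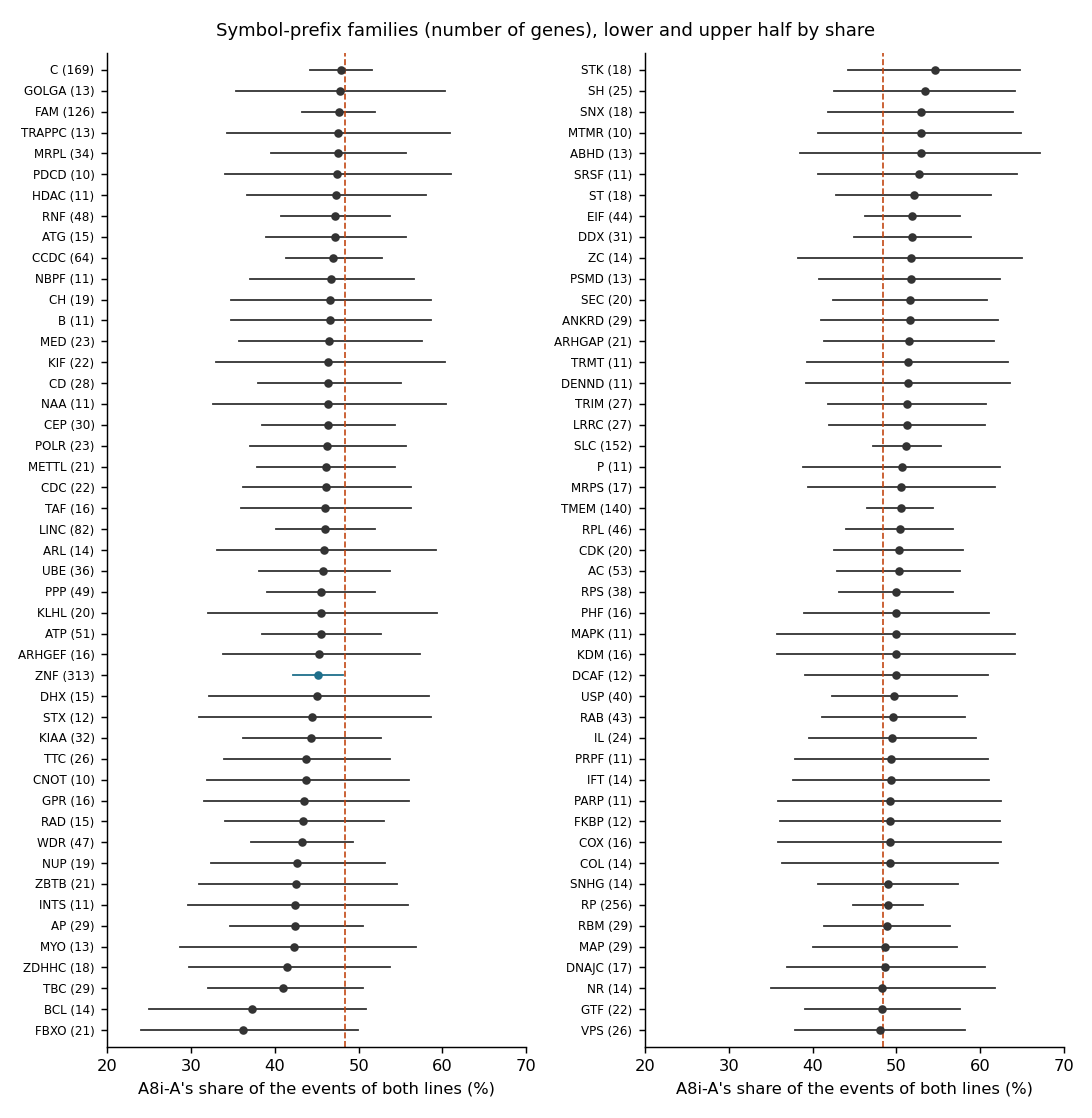
Share of A8i-A in the events of both isoform lines (percent, horizontal axis) for the 94 families, ordered by share in 2 panels, with exact 95% intervals of counting error and a dashed line at 48.4%, the share over all genes. Only the interval of ZNF (blue) lies wholly on one side of the line, and the point estimates run from 36.2% for FBXO to 54.6% for STK.

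The gene lists that follow the study's own questions showed smaller gaps. Of the lists with events in these lines, no interval left out the share over all genes. The event numbers of this pair lay closer together than independent Poisson counts of equal mean would (0.58 against 1). Intervals that treat events as independent may thus be too wide here, and taking in that share is weak evidence of evenness. No list held more than 2 separated genes, which came to 8.33% of the phosphatase list, 6.9% of the matrix proteins and 1 of 4 mesenchymal markers, against 6.38% of all genes. For the surface receptors, 12 of 26 integrin genes were listed, with 32 events in A8i-A and 34 in A8i-B (48.5%, 36.0 to 61.1%). ITGB2, the beta 2 subunit, had 3 events in A8i-A and in A8 but 2 in A8i-B and in A8i, and its partner ITGAX, the alpha X subunit, had 1 event in A8 and 0 in the other 3 libraries. ITGB1 had 5 events in A8i-A, 6 in A8i-B, 7 in A8 and 6 in A8i, and ITGB5 had 3, 5, 5 and 3 in that order. None of the 12 integrins was separated, with more events in A8i-A for 4, more in A8i-B for 5 and equal numbers for 3. None of the 7 ligands of integrin alpha X beta 2 was listed.

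Partners of ECM1a in the study had equal totals, which came mostly from ANXA2. The 6 of 9 listed had 39 events in each line (50.0%, 38.5 to 61.5%), with ANXA2 at 26 in A8i-A and 28 in A8i-B. Without ANXA2 the share of A8i-A was 54.2%. Besides ANXA2, ITGB1 and the pair of integrin subunits above, CANX, the chaperone calnexin, had 4, 4, 4 and 3 events in A8, A8i, A8i-A and A8i-B, and JUP, plakoglobin, had 1 event in A8i-A only.

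Among the genes of matrix proteins, 29 of 46 were listed, with 73 events in A8i-A and 69 in A8i-B (51.4%, 42.9 to 59.9%), and 1 was separated in each direction. THBS3, a thrombospondin, had 13 events in A8i-A and 3 in A8i-B, with 5 in A8 and 2 in A8i (ratio 4.33, 1.19 to 23.7). LAMA5 had 1 event in A8i-A and 6 in A8i-B, with 3 in A8 and 8 in A8i. FN1, fibronectin, differed by 1 event, with 10 and 11, and COL13A1, a transmembrane collagen, had 10 and 8 beside 12 in A8 and 4 in A8i.

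Downstream of the integrins, the focal adhesion and AKT list had 33 of 42 genes, with 100 events in A8i-A and 105 in A8i-B (48.8%, 41.8 to 55.8%). More genes had the higher number in A8i-B (14) than in A8i-A (5), but most of them differed by 1 event and none was separated. TGFB1I1, a focal adhesion adaptor, had 12 and 6 events, PXN, paxillin, had 13 and 9, AKT1 had 8 and 6, and AKT2 had 10 and 12. ILK, integrin-linked kinase, had 4 and 7, and PTK2, which encodes focal adhesion kinase, had 10 in both lines beside 11 in A8 and 12 in A8i. The actin list had 43 of 52 genes with 114 and 124 events (47.9%, 41.4 to 54.4%), and only WASF3, an activator of actin branching, was separated, with 0 events in A8i-A, 4 in A8i-B and 1 in both A8 and A8i. Myosin and its regulators had 26 of 32 genes with 62 and 69 events (47.3%, 38.5 to 56.2%) and no separated gene, and MYH9, the heavy chain of non-muscle myosin, had 1 event in A8 and 0 elsewhere.

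The splicing regulators were close to even. The hnRNP list had 22 of 30 genes, with 99 events in A8i-A and 101 in A8i-B (49.5%, 42.4 to 56.6%). HNRNPLL, a regulator of exon skipping that the study followed up, had 2, 1, 2 and 2 events in A8, A8i, A8i-A and A8i-B, HNRNPL had 1 in each and HNRNPM had 6, 6, 7 and 7. HNRNPUL1 was the separated member, with 4 events in A8i-A and 1 in A8i-B, 5 in A8 and 1 in A8i. PTBP1, the polypyrimidine tract-binding protein, had 5 in A8i-A and 10 in A8i-B, with 10 in A8 and 6 in A8i, and its relative PTBP2 had 3 and 6. The SR list had 15 of 16 genes with 67 events in each line (50.0%, 41.2 to 58.8%) and no separated member. SRSF1 had 8 events in A8i-A and 5 in A8i-B, with 4 in A8 and 7 in A8i, and SRSF6 had 3 in A8 and 1 in each other library.

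Of the transporters, 24 of 34 ABC genes were listed, with 59 events in A8i-A and 69 in A8i-B (46.1%, 37.2 to 55.1%). ABCG1, a sterol exporter that the study followed up, had 2 events in A8, 1 in A8i and 2 in both isoform lines. ABCD4, a lysosomal transporter needed for vitamin B12, had 11 events in A8i-A and 17 in A8i-B, with 11 in A8 and 13 in A8i, and was not separated. The phosphatase list had 24 of 34 genes and was even at 51 and 52 events (49.5%, 39.5 to 59.5%), with PPP1R14B at 3 and 0 towards A8i-A and 1 gene separated towards A8i-B. For the stemness markers, 4 of 12 were listed, with 17 and 21 events (44.7%, 28.6 to 61.7%), and CD44, a hyaluronan receptor, had 13 in A8i-A and 17 in A8i-B beside 16 in A8 and 17 in A8i. The epithelial markers stood at 15 and 16 events (48.4%, 30.2 to 66.9%) and the mesenchymal ones at 15 and 21 (41.7%, 25.5 to 59.2%). In the latter, ZEB2, a repressor of epithelial genes, was separated with 0 events in A8i-A against 4 in A8i-B, while ZEB1 had 2 and 4, FN1 had 10 and 11 and VIM, vimentin, had 3 and 2. HNRNPU, PPP2CB and PPP1R14C, also followed up in the study, were not analysed here.

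**Figure D3:**
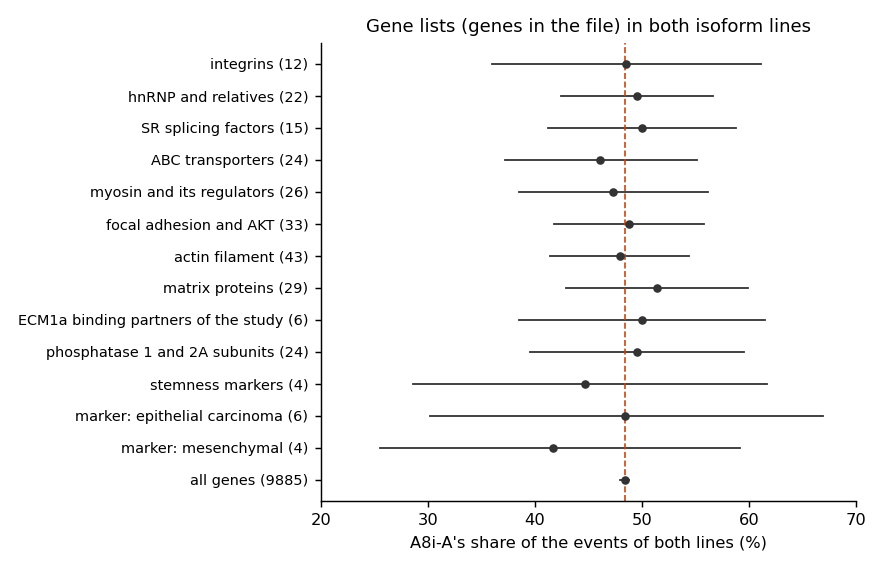
Share of A8i-A in the events of both isoform lines (percent, horizontal axis) for the gene lists, with exact 95% intervals of counting error and a line at 48.4%, the share over all genes. Every interval crosses the line, and the widest belong to the lists with the fewest events.

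Structure of the genes went with the gap between the lines. Genes were cut into 4 groups of like size by the length and by the GC content of their longest annotated transcript. In the 25% with the longest transcripts (5678 nt or more), A8i-A held 46.6% of the events (45.6 to 47.5%), and in the shortest (up to 2459 nt) 50.2% (49.2 to 51.1%). Length was not particular to this pair. Between A8 and A8i, A8 held 56.2% (55.3 to 57.2%) in the longest and 53.1% (52.2 to 54.1%) in the shortest, against 54.4% over all genes. In both pairs the library with more events in total held its larger share in the longest transcripts. Taken jointly, both features went with the share of A8i-A. Long transcripts of low GC content (953 genes) gave 45.0% (43.4 to 46.6%), and there A8i-B had more events for 375 genes and A8i-A for 188, with 44 and 11 genes separated. Separated genes made up 5.77% of this group, against 6.38% of all genes. Long transcripts of high GC content (287 genes) gave 48.9% (46.5 to 51.4%), short ones of low GC content (329 genes) 48.7% (46.0 to 51.4%) and short ones of high GC content (892 genes) 50.5% (49.0 to 52.0%). Genes with 16 or more exons stood at 46.7% (45.9 to 47.6%) and those with up to 5 exons at 49.0% (48.1 to 49.9%). The separated genes showed the same, with a median transcript of 4479 nt, 46.5% GC and 10 exons for those with more events in A8i-B, 3675 nt, 51.8% and 8 exons for those with more in A8i-A, and 3852 nt, 47.9% and 9 exons over all genes.

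**Figure D4:**
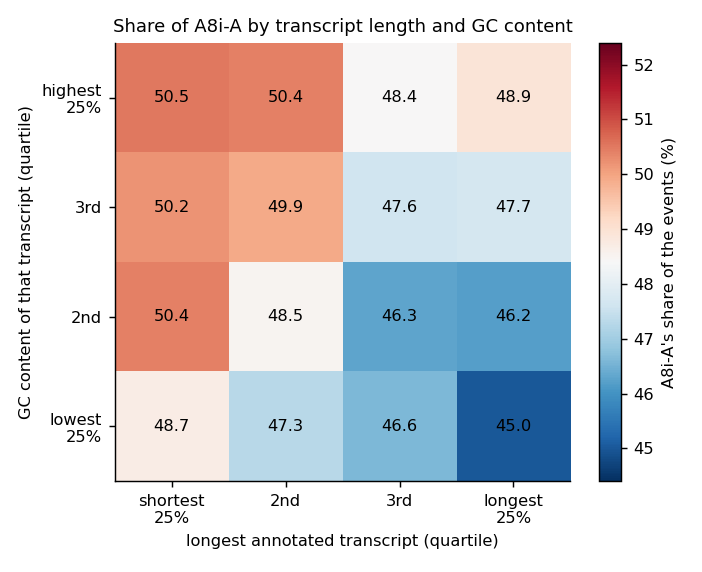
Share of A8i-A in the events of both isoform lines (percent, colour and printed number) for genes cut into 4 groups each by the length of their longest annotated transcript (horizontal) and its GC content (vertical). The share is lowest, 45.0%, in the corner of long transcripts with low GC content and highest, 50.5%, in that of short transcripts with high GC content.

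Separated genes were also looked at along the chromosomes, in 383 blocks of 25 neighbouring genes that held 9575 genes. The share of A8i-A lay between 35.9 and 59.0% with a median of 48.4%, and the 25th and 75th percentiles were 45.9 and 50.5%. In 4 blocks (1.04%) the interval left out the share over all genes. The block on chromosome 3 from 56761446 to 66438540 had 42 events in A8i-A and 71 in A8i-B (37.2%, 28.3 to 46.8%), with SLMAP at 3 and 18 and SLC25A26 at 1 and 4. On chromosome 1 from 198126124 to 204121172 there were 39 and 64 events (37.9%, 28.5 to 48.0%), with IGFN1 at 6 and 17 and CYB5R1 at 1 and 5. In the block on chromosome 3, SLMAP held most of the gap. The blocks with a high share were on chromosome 7 from 43980494 to 55640681, with 124 and 100 events (55.4%, 48.6 to 62.0%), the pseudogene SEPT7P2 at 17 and 8 and DBNL at 13 and 5, and on chromosome 17 from 37560538 to 39979465, with 95 and 73 events (56.5%, 48.7 to 64.2%), KRT15 at 18 and 3 and CDK12, a kinase of RNA polymerase II, at 9 and 3. In the last of these MED24, a Mediator subunit, ran the other way with 8 and 15.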

How the data were processed

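RNA-seq libraries of 4 cell lines were grouped by GEO's labels, 1 library each. According to the study's methods, the authors used Trim Galore on the reads, TopHat to align them to hg19 and Cufflinks for expression, whereas the submitters' processing notes name Cufflinks 2.2.1 and GRCm38, a mouse build. The deposited values are whole-number event counts per gene and library, which the authors did not scale to depth as far as the totals show. The kind of event, the program and its filters are not given in the sources used here, so depth in reads is unknown and no count model was fitted.

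Genes were compared by difference and by ratio after adding 1, and sets of genes by the share of A8i-A with exact Clopper-Pearson 95% intervals. The calling rule was tested on simulated data. Genes were matched by identifier to GENCODE v44 lifted to GRCh37, which also gave the exon junctions. Named were the 10 separated genes with the largest ratio and the 5 with the largest difference in each direction, the 10 genes with the most events, genes of the study's follow-up, up to 4 members of a list or family, and the 5 families at either end; any other gene was picked after its values were seen. Some items are not reported here. The members and lists were chosen with earlier results of these data known. Python 3.11.15, numpy 2.4.6, pandas 2.3.3, scipy 1.17.1 and matplotlib 3.10.9 were used.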

Additional observations from a re-analysis of the deposited data

How the results depend on the processing

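The count of separated genes moved with the rule. With totals scaled it was 405 in place of 631, of which 228 had more events in A8i-A and 177 more in A8i-B, by the construction of whole-number limits. A limit of 2 events gave 1328 genes, 507 and 821 in the 2 directions, a limit of 4 events 325, with 117 and 208, and genes with an event in all 4 libraries 398, with 144 and 254. A pseudocount of 0.5 left the count at 631. The total of A8i-A, 93.6% of that of A8i-B, was 95.6% over genes with an event in all 4 libraries and 96.7% when genes with at least 1 event were counted in place of events. The number of families whose interval left out the share over all genes went from 1 to 0 over members with an event in all 4 libraries; the cause was not tested. No gene list left it out under any alternative, and blocks of 15 genes gave 1.24% in place of 1.04%. No paired analysis was possible because each line has 1 library. The mean was 2.3 events a gene in A8i-A and 2.45 in A8i-B, which limits what a single gene can show.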

Other observations

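Non-coding genes took a larger part of the separated genes than of the table. Of 522 long non-coding RNA genes, 8.62% were separated, and of 231 pseudogenes 9.09%, against 6.11% of 9050 protein-coding genes. The separated long non-coding RNA genes divided into 17 towards A8i-A and 28 towards A8i-B. For pseudogenes the split was 11 and 10, and for protein-coding genes 194 and 359. A8i-A held 50.5% of the events of the long non-coding RNA genes (48.1 to 53.0%), 49.7% of those of pseudogenes (46.3 to 53.1%) and 48.3% of those of protein-coding genes (47.8 to 48.7%).

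Some genes had events in only 1 of the 4 libraries. Of the 9885 genes, this held for 336 in A8i-A and 403 in A8i-B, mostly with 1 or 2 events. A8i-B also had more events in total, 24236 against 22691. Genes with events in A8 only or A8i only were not counted, so these numbers are not particular to the isoform lines. At least 3 events were found for 10 such genes in A8i-A, led by PCSK4, a proprotein convertase, with 4, and including SLC11A2, an iron transporter, and PRSS23, a serine protease, with 3 each. In A8i-B there were 17, led by FAM95B1 and RASGEF1A, a Ras exchange factor, with 6 each, ahead of ZWILCH, a kinetochore protein, and LTB4R2, a leukotriene receptor, with 4 each. ATP7B, a copper exporter, EIF2AK4, a kinase that responds to amino acid shortage, and RBL1, a relative of the retinoblastoma protein, had 3 each.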
